A study of Mus musculus with 12 samples.

Results

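The genes described here are 10 components of the circadian clock, namely Arntl, Npas2, Clock, Per1, Per2, Per3, Cry1, Nr1d1, Dbp and Ciart. They were taken as a list of names and found in the count table by matching Entrez identifiers to mouse symbols, and they are 10 of the 27179 genes in that table. The genes were chosen by their levels in these libraries, since the list was drawn up knowing their differences between the groups and between single chow-fed oncogene mice, and levels and fold changes of the 10 genes are therefore given as a description without a p-value. Counts of the 10 genes that passed the threshold of the fit are printed as a description too, and are no support for a change in them. Liver RNA was sequenced in bulk from 12 mice in 4 groups of 3, with 1 library per mouse. Mice received either chow (CD) or a diet low in protein (LPD), starting shortly before injection and continuing until harvest. They were injected through the tail vein under hydrodynamic pressure, which delivers plasmids to a part of the hepatocytes, with empty vector (Vec, called WT in the sample titles) or with 2 oncogenes, human c-MET and a β-catenin that lacks its N-terminus and is always active (ΔN90-β-catenin). Both oncogenes were carried on plasmids with a ubiquitously active promoter and were integrated by the Sleeping Beauty transposase, a combination that gives rise to hepatocellular carcinoma (HCC) in mice. The methods describe young adult male mice, with a mixed 129/Ola and C57BL/6 background given in one place and C57/Bl3 in another. All 4 groups were collected when the CD c-MET/β-catenin mice had reached their end point, so the LPD c-MET/β-catenin livers were taken at that time and not at an end point of their own. Whole liver was used, although the labels name the hepatocyte as cell type. The methods set mouse experiments in the early afternoon after a short fast, whereas the hour at which each of the 12 livers was taken is not given in the sources used here.

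The mammalian clock is a transcriptional loop. ARNTL (also called BMAL1) pairs with CLOCK or its paralog NPAS2 and binds E-boxes to switch on Per, Cry, Nr1d1, Dbp and Ciart. PER and CRY proteins then repress the ARNTL dimers, and so does CIART (also called CHRONO). NR1D1 (REV-ERBα) binds ROR elements and represses Arntl, Npas2 and Clock, and ROR receptors activate from the same elements. DBP, a transcription factor of the PAR bZIP family, drives genes through D-boxes, which NFIL3 occupies as a repressor. In mouse liver these transcripts cycle over the day, with Arntl and Npas2 low in the later part of the light phase, when Nr1d1, Dbp and the Per genes are high or have just peaked. The hepatic clock is also set by feeding time.

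The 3 promoters below carry, in capitals, the elements through which the arms of the loop act. They are examples of windows of genes that differed widely between mice and held such an element. The window of Cry1, which held an E-box and differed 4.63 times in level within CD c-MET/β-catenin, is not shown. The windows of Dbp and Npas2, which differed more, held none of the 3 elements. Each window holds 300 bases around the annotated start of a transcript in RefSeq (GRCm38.p6), printed 5′ to 3′ on the strand of the gene, and both strands were searched.
Arntl, chr7:113207261-113207560, plus strand, ROR element in capitals: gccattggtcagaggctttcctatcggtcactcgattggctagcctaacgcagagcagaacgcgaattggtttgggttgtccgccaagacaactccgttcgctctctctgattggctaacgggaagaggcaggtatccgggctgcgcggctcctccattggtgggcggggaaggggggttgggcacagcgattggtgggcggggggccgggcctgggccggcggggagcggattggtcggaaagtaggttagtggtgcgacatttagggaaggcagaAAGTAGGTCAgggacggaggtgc
Ciart, chr3:95882179-95882478, minus strand, E-boxes in capitals: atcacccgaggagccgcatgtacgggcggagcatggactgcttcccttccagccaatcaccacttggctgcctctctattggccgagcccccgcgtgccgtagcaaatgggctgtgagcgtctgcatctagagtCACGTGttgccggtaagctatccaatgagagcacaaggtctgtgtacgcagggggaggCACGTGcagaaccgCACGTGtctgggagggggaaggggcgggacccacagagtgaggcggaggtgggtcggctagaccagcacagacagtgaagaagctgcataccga
Per3, chr4:151044616-151044915, minus strand, D-boxes in capitals: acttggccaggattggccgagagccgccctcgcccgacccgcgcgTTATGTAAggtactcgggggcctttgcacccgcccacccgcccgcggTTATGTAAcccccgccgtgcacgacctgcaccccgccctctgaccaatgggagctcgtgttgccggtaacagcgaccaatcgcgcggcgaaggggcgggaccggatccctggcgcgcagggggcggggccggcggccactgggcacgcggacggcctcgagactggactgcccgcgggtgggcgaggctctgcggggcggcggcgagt
The Arntl window held 1 ROR element (AAGTAGGTCA), which begins 27 bases after the start. The Ciart window held 3 E-boxes (CACGTG), beginning at bases -116, -58 and -44 relative to its start. The Per3 window held 2 D-boxes (TTATGTAA), at -205 and -158. Of all 32851 windows of this length, 7.15% held an E-box and 0.594% held 2 or more, 0.938% held a D-box and 0.0213% held 2 or more, and 0.435% held a ROR element (the letters found in Arntl, with any base in the third place and A or G in the fifth). Windows were available for 9 of the 10 genes, of which Per1, Cry1 and Ciart held an E-box, 1 (Per3) a D-box and 1 (Arntl, in the later of its 2 windows) a ROR element. A match describes the letters of the window only.

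The libraries held 19476209 to 31990267 counts each, and 13947 genes, all 10 clock genes included, had enough counts to be tested. Levels are CPM, counts relative to the library total after scaling by the trimmed mean of M values (TMM). Hepatocyte markers were abundant in every library, with 7 of 7 detected and a summed level between 76200 and 131000 CPM. Between the injections on CD, Serpina1c (log2 fold change -1.99), Cyp3a11 (-1.26) and Ttr (-0.87) were called lower and Trf (0.74) higher, and Alb, Apoa1 and Hnf4a were not called. The injection was visible in the β-catenin target Glul, whose level in CD Vec was 745 to 994 CPM and in CD c-MET/β-catenin 6640 to 8610 CPM. Several libraries stood apart from their group. CD Vec replicate 2 had a summed level of 2050 CPM over 9 temperature and heat shock genes, against 603 and 612 in the other CD Vec livers, and CD Vec replicate 1 had 42800 CPM over 10 feeding genes, against 4120 and 17100. CD c-MET/β-catenin replicate 1 had 5680 CPM over 10 glucocorticoid targets, against 1980 and 2260. The header of the count table carries dataset numbers in 3 runs, which the labels do not explain. Run 1 held replicates 1 and 2 of CD c-MET/β-catenin. Run 3 held replicate 1 of LPD Vec together with replicates 1 and 2 of CD Vec, and run 2 held the other 7 libraries. Nothing in the labels says more of how replicates were obtained than that each is a separate sample, so the p-values below measure the spread between these samples.

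Taken as a list, the clock genes differed more between the 3 chow-fed oncogene mice than between the mice of any other group. In replicates 1 and 3 of CD c-MET/β-catenin, Arntl and Npas2 were high and Dbp, Per3 and Ciart low, whereas replicate 2 lay close to the CD Vec livers for Arntl, Clock, Per3 and Dbp. In the other 3 groups the highest mouse was at most 1.97 times the lowest for Arntl, Per3 and Dbp. Not all genes were that tight there. The same ratio was 4.61 for Ciart and 3.64 for Per1 in LPD Vec, and 3.58 for Npas2, near the limit of detection, in CD Vec. For Per1 it was 2.37 in CD c-MET/β-catenin, less than in LPD Vec. The plot of the 10 genes by library shows these values.

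**Figure D1:**
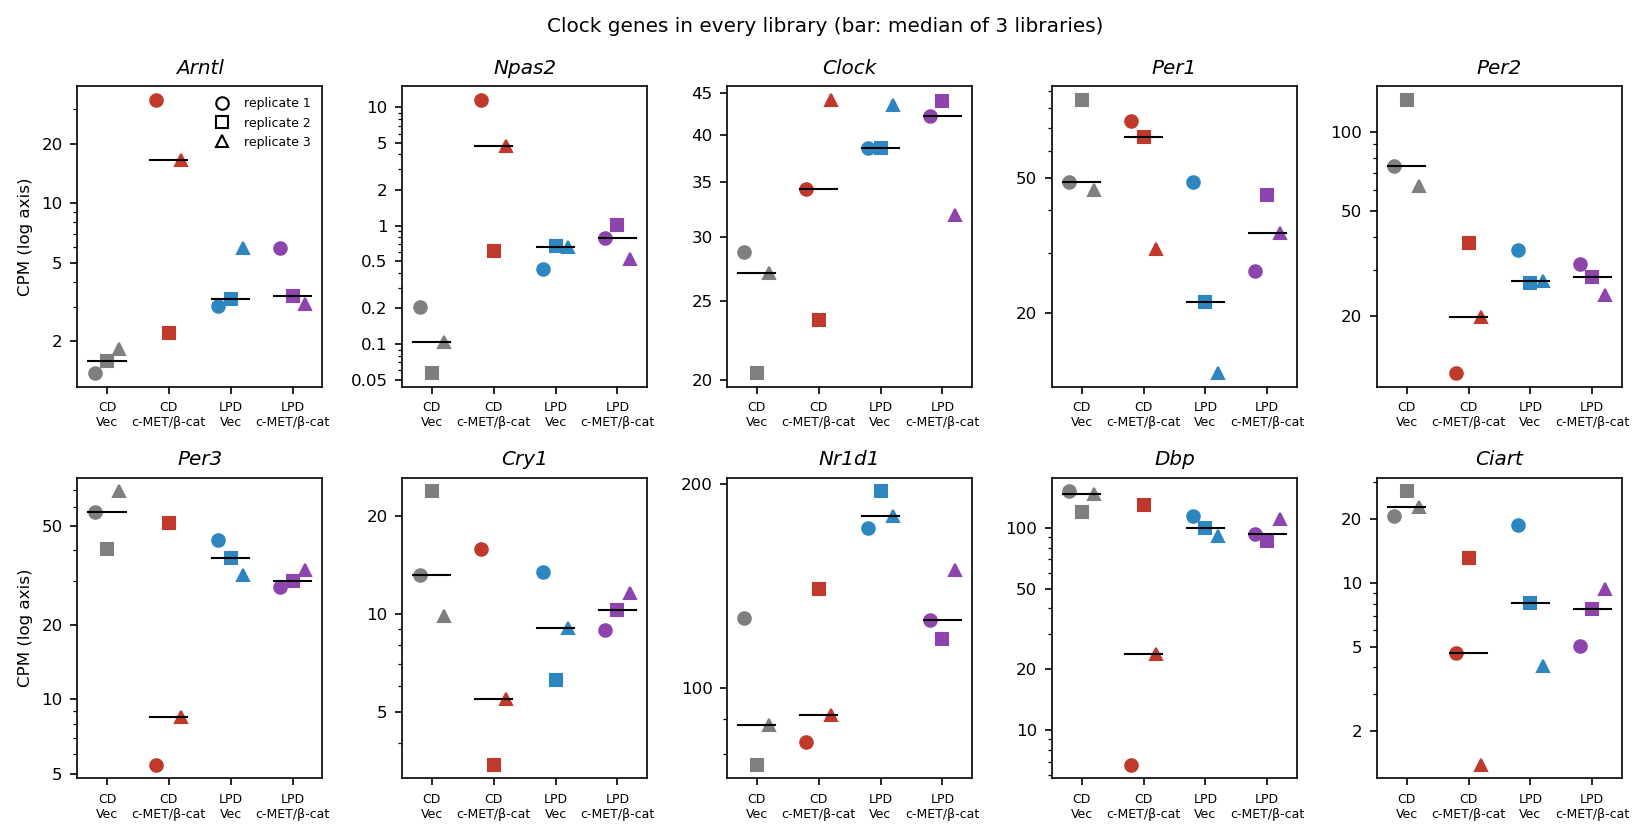
Level of each of the 10 clock genes in CPM (log axis) in the 12 libraries, by group, with 1 symbol per replicate number and a bar at the median of 3 libraries. In CD c-MET/β-catenin, Dbp lay at 6.76 and 23.8 CPM in replicates 1 and 3 and at 130 CPM in replicate 2, while the LPD groups lay between 85.9 and 115 CPM.

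Of the activators, Arntl (Entrez 11865, chromosome 7 from 113178471 to 113314126 in GRCm38) was at 1.38, 1.59 and 1.82 CPM in CD Vec replicates 1 to 3. In CD c-MET/β-catenin replicates 1 to 3 it was at 33.5, 2.20 and 16.6 CPM. In LPD Vec it was at 3.02, 3.29 and 5.95 CPM, and in LPD c-MET/β-catenin at 5.91, 3.40 and 3.10 CPM. Every CD c-MET/β-catenin and every LPD liver was thus above every CD Vec liver, and the LPD groups overlapped each other. The fitted log2 fold change between oncogene and Vec livers was 3.45 (SE 0.76) on CD and 0.02 (SE 0.69) on LPD. By mean level the order was CD c-MET/β-catenin (17.4 ± 15.7, SD, n = 3), LPD c-MET/β-catenin (4.14 ± 1.54), LPD Vec (4.09 ± 1.62) and CD Vec (1.60 ± 0.224 CPM), and the upper 3 did not differ beyond their spread.

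Npas2, the paralog of Clock (Entrez 18143, chromosome 1 from 39193702 to 39363240), was near the limit of detection in CD Vec, with 4, 1 and 2 counts in replicates 1 to 3. CD c-MET/β-catenin replicates 1 to 3 held 400, 15 and 127 counts, which is 11.6, 0.612 and 4.75 CPM. The LPD livers held between 9 and 29 counts each, or 0.432 to 1.02 CPM. The groups on CD did not overlap, and the order of the CD c-MET/β-catenin mice was that of Arntl. With counts summed over 3 libraries the ratio of CD c-MET/β-catenin to CD Vec was 50.9, with a 95% exact (Clopper-Pearson) interval of 24.5 to 127 that covers counting error only.

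Clock itself (Entrez 12753, chromosome 5 from 76209868 to 76305603) varied little by comparison. It was at 28.7, 20.4 and 27.1 CPM in CD Vec, at 34.3, 23.7 and 44.2 CPM in CD c-MET/β-catenin, at 38.6, 38.6 and 43.5 CPM in LPD Vec and at 42.2, 44.0 and 31.9 CPM in LPD c-MET/β-catenin. All LPD livers were above all CD Vec livers, and the oncogene and vector livers on CD overlapped. The log2 fold change of LPD against CD in Vec was 0.66 (SE 0.21).

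Of the repressors, Per2 (Entrez 18627, chromosome 1 from 91415977 to 91459351) was at 74.5, 133 and 62.5 CPM in CD Vec. It was at 12.1, 37.8 and 19.8 CPM in CD c-MET/β-catenin, at 35.6, 26.6 and 27.2 CPM in LPD Vec and at 31.5, 28.1 and 24.1 CPM in LPD c-MET/β-catenin. CD Vec stood above the other 3 groups without overlap, and those 3 overlapped one another. The log2 fold change was -1.95 (SE 0.38) for c-MET/β-catenin on CD, -1.59 (SE 0.37) for LPD in Vec and -0.09 (SE 0.37) for c-MET/β-catenin on LPD. Mean Per2 was 89.9 ± 37.5 CPM in CD Vec and between 23.2 and 29.8 CPM in the other groups, whose order does not hold beyond their spread.

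Per3 (Entrez 18628, chromosome 4 from 150997018 to 151044707) was at 56.9, 40.5 and 69.2 CPM in CD Vec and at 5.46, 51.7 and 8.46 CPM in CD c-MET/β-catenin. In LPD Vec it was at 43.9, 37.2 and 31.9 CPM, and in LPD c-MET/β-catenin at 28.3, 30.1 and 33.3 CPM. Replicate 2 of CD c-MET/β-catenin lay inside the CD Vec range and the other 2 mice lay below all 9 livers of the other groups. The log2 fold change on CD was -1.35 (SE 0.64) with all libraries and -3.0 without replicate 2 of CD c-MET/β-catenin.

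Per1 and Cry1 followed another order. Per1 (Entrez 18626, chromosome 11 from 69095108 to 69109965), the Per gene that also responds acutely to glucocorticoids and cAMP, was at 48.4, 84.7 and 46.1 CPM in CD Vec and at 73.3, 65.7 and 30.9 CPM in CD c-MET/β-catenin. LPD Vec held 48.4, 21.5 and 13.3 CPM and LPD c-MET/β-catenin 26.6, 44.3 and 34.3 CPM, so that all 4 groups overlapped in a chain. Cry1 (Entrez 12952, chromosome 10 from 85131700 to 85185054), the CRY repressor that acts late in the cycle, was at 13.2, 23.9 and 9.84 CPM in CD Vec and at 15.9, 3.43 and 5.47 CPM in CD c-MET/β-catenin. In LPD Vec it was at 13.5, 6.25 and 9.03 CPM and in LPD c-MET/β-catenin at 8.94, 10.3 and 11.6 CPM, within the range of CD c-MET/β-catenin. Here CD c-MET/β-catenin replicate 2 was the lowest of the 12 livers, unlike for Arntl or Dbp, and the log2 fold change on CD was -0.91 (SE 0.51).

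Nr1d1 (Entrez 217166, chromosome 11 from 98767932 to 98775377), which encodes REV-ERBα, was highest in LPD Vec. It was at 127, 77.1 and 88.1 CPM in CD Vec, at 83.3, 140 and 91.3 CPM in CD c-MET/β-catenin, at 172, 195 and 179 CPM in LPD Vec and at 126, 118 and 149 CPM in LPD c-MET/β-catenin. LPD Vec stood above the other 3 groups without overlap. The log2 fold change was 0.90 (SE 0.22) for LPD in Vec, -0.48 (SE 0.22) for c-MET/β-catenin on LPD and 0.11 (SE 0.22) for c-MET/β-catenin on CD. Its exons share 263 bases with Thra on the other strand, 8.55% of their length, and the strand setting of the counting is not given in the sources used here.

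Dbp (Entrez 13170, chromosome 7 from 45705100 to 45710203) was at 152, 120 and 148 CPM in CD Vec and at 6.76, 130 and 23.8 CPM in CD c-MET/β-catenin. LPD Vec held 115, 100 and 91.3 CPM, and LPD c-MET/β-catenin 93.0, 85.9 and 111 CPM. Within CD c-MET/β-catenin the highest mouse was 19.3 times the lowest, against 1.26 to 1.29 times in the other 3 groups. The log2 fold change on CD was -1.39 (SE 0.73) with all libraries and -3.20 without replicate 2 of CD c-MET/β-catenin, and it was -0.08 (SE 0.71) on LPD. Dbp exons share 539 bases with Sphk2 on the other strand.

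Ciart (Entrez 229599, chromosome 3 from 95878500 to 95882257), whose promoter window held 3 E-boxes, was at 20.8, 27.1 and 22.9 CPM in CD Vec and at 4.65, 13.1 and 1.39 CPM in CD c-MET/β-catenin. It was at 18.7, 8.07 and 4.05 CPM in LPD Vec and at 5.03, 7.51 and 9.36 CPM in LPD c-MET/β-catenin. CD Vec was above the other 3 groups without overlap, and those 3 overlapped. The log2 fold change was -1.89 (SE 0.67) for c-MET/β-catenin on CD and -1.20 (SE 0.66) for LPD in Vec.

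Per length of exon, the levels in CD Vec ran from 46.8 CPM per kb for Dbp and 31.7 for Nr1d1, over 15.3 for Per2, 10.6 for Per1 and 10.4 for Ciart, to 5.78 for Per3 and 4.69 for Cry1. The activators came last, with 1.85 CPM per kb for Clock, 0.212 for Arntl and 0.0254 for Npas2. In CD c-MET/β-catenin, Arntl had a mean of 2.32 CPM per kb and Clock 2.48. The mean of Arntl in that group was set by replicates 1 and 3.

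Counted over the list, 4 of the 10 genes passed an adjusted p of 0.05 in edgeR between c-MET/β-catenin and Vec on CD (Arntl and Npas2 higher, Per2 and Ciart lower), where 35.4% of all 13947 genes tested did, 18.7% higher and 16.7% lower. On LPD it was 0 of 10, against 1.32% of all genes. Between the diets it was 0 of 10 in Vec, against 0.308%, and 1 of 10 in c-MET/β-catenin livers (Npas2), against 20%. The interaction, which is the log2 effect of the injection on LPD minus that on CD, was called for Npas2 and Per2, 2 of 10 against 8.91%. The genes were picked with these contrasts known, and nothing is read from the shares. The fit held 1 estimate of spread per gene for all 4 groups, so the CD c-MET/β-catenin mice also enter the SE of comparisons without them. For Dbp the SE on LPD was 0.71, where the SD of log2 CPM was 0.17 in LPD Vec and 0.19 in LPD c-MET/β-catenin. Between the diets in Vec, 1 of 10 was called without replicate 2 of CD c-MET/β-catenin. Counts of 0 in Vec and on LPD thus do not show that these genes were unchanged. Without replicate 2 of CD c-MET/β-catenin the count on CD rose from 4 to 7 (3 higher, 4 lower), that between diets in oncogene livers from 1 to 4 and that of the interaction from 2 to 5. Without replicate 1 of CD c-MET/β-catenin, or without replicate 1 or 3 of LPD c-MET/β-catenin, both latter counts were 0. The count of the interaction was also 0 without CD Vec replicate 1 or 2, replicate 2 of LPD c-MET/β-catenin or any LPD Vec replicate, and 1 without replicate 3 of either CD group. Replicate 2 of CD c-MET/β-catenin stood out in these same genes. The share of all genes called without a library is not given here, so these counts have no background and nothing is read from them.

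Libraries of the compared groups did not overlap for 4 of the 10 genes between injections on CD, where 42.6% of all genes tested did not overlap, and for 1 (Nr1d1) between injections on LPD, against 25.2%. Between the diets in Vec they did not overlap for 7 genes, against 17.2%. Arntl, Npas2, Clock and Nr1d1 were higher on LPD in all mice, and Per2, Dbp and Ciart lower. Between CD and LPD oncogene livers all 10 genes overlapped, against 39.3% of all genes that did not. The comparisons share libraries, so their values are set side by side only.

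Mouse by mouse, CD c-MET/β-catenin replicate 1 differed from the CD Vec mean by 4.33 on the log2 scale for Arntl, 5.87 for Npas2, -4.35 for Dbp, -3.29 for Per3, -2.81 for Per2 and -2.31 for Ciart. Replicate 3 differed by 3.32 for Arntl, 4.6 for Npas2, -2.54 for Dbp, -2.67 for Per3, -2.10 for Per2 and -4.00 for Ciart. In replicate 2 the same differences were 0.45 for Arntl, 1.81 for Npas2, -0.10 for Dbp, -0.07 for Per3, -1.17 for Per2 and -0.83 for Ciart. The sign was thus shared by the 3 mice for these 6 genes and the size was not. For Dbp and Per3, replicate 2 lay inside the CD Vec range, so its sign there says little. The sign was not shared for the remaining genes. In replicates 1 to 3 the differences were 0.45, -0.09 and 0.81 for Clock and 0.35, 0.20 and -0.89 for Per1. They were 0.12, -2.06 and -1.40 for Cry1 and -0.19, 0.56 and -0.06 for Nr1d1. A prior count of 2 was added before taking log2 CPM, which pulls in Npas2 most.

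Replicates 1 and 2, the pair farthest apart in Arntl, Npas2, Dbp and Per3, are of the same header run. Between them, the absolute log2 difference was 4.25 for Dbp, 4.06 for Npas2, 3.88 for Arntl and 3.22 for Per3, at or above the 99.8th percentile of all genes tested. It was 0.53 for Clock, at the 69.7th percentile, and 0.16 for Per1, at the 26.2nd. Within run 2 each injection had 1 library on CD, and CD c-MET/β-catenin replicate 3 differed from CD Vec replicate 3 by 3.13 for Arntl, 4.67 for Npas2, -2.63 for Dbp, -3.02 for Per3, -1.65 for Per2 and -3.96 for Ciart, with no replicate. With header run as a term in the fit, 1 of the 10 genes was called on CD, and the log2 fold change was 3.07 for Arntl, -2.51 for Dbp and -1.77 for Per2. The share of all genes called in that fit is not given here, so the count has no background.

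**Figure D2:**
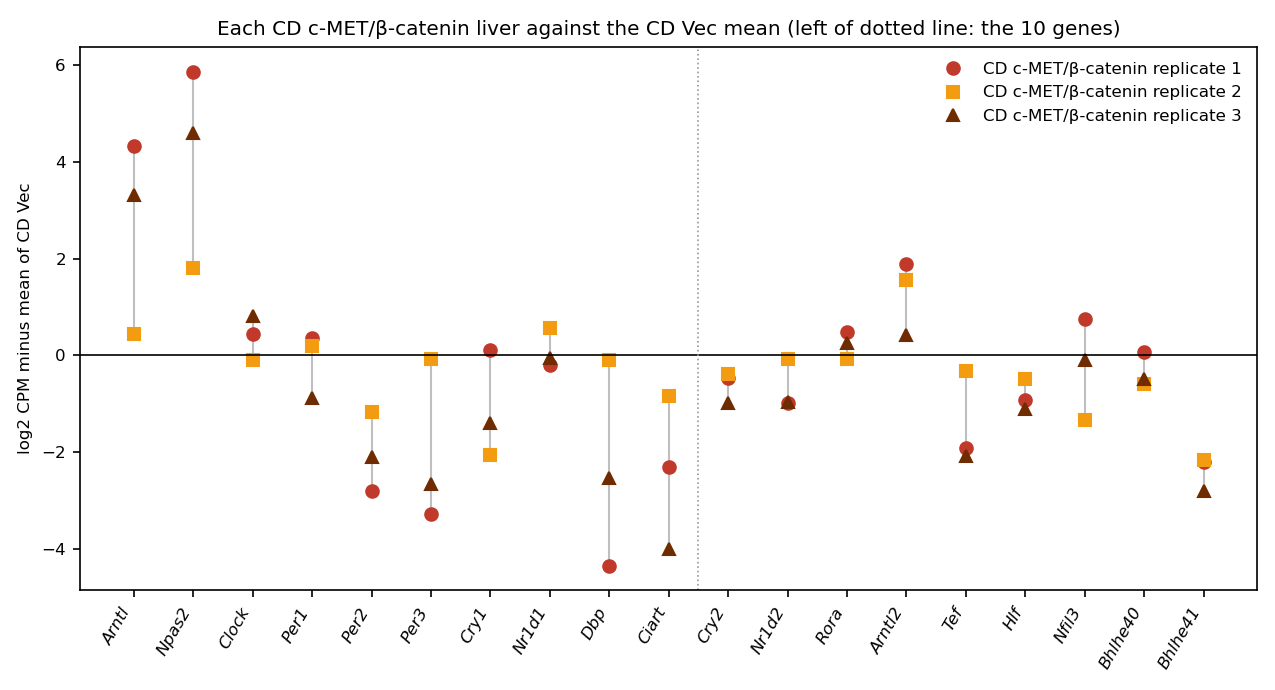
Difference of each CD c-MET/β-catenin liver from the mean of the 3 CD Vec livers in log2 CPM (vertical axis) for the 10 clock genes, left of the dotted line, and for 9 other clock genes, right of it. Replicate 2 lies near 0 for Arntl (0.45), Per3 (-0.07) and Dbp (-0.10), where replicates 1 and 3 lie at 4.33 and 3.32, at -3.29 and -2.67, and at -4.35 and -2.54, and the 3 mice lie close together for Bhlhe41, between -2.80 and -2.17.

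An index was formed in each library as the mean log2 CPM of Arntl, Npas2 and Clock minus the mean of Nr1d1, Dbp, Ciart and Per3, so that scaling between libraries cancels. Its genes were picked with their values known and leave out Per1, Per2 and Cry1, so the index describes those 7 genes and not all 10. It was -4.91, -5.06 and -4.98 in CD Vec replicates 1 to 3, the tightest group. It was 1.10, -4.15 and 0.25 in CD c-MET/β-catenin. In LPD Vec it was -4.00, -3.41 and -2.72, and in LPD c-MET/β-catenin -2.58, -2.82 and -3.59. All 6 LPD livers thus lay between CD Vec and CD c-MET/β-catenin replicates 1 and 3, the 2 LPD groups overlapped, and CD c-MET/β-catenin replicate 2 lay between CD Vec and LPD Vec. Group means were -4.98 ± 0.07, -0.93 ± 2.82, -3.38 ± 0.64 and -3.0 ± 0.53 (SD, n = 3 each) in the same order.

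**Figure D3:**
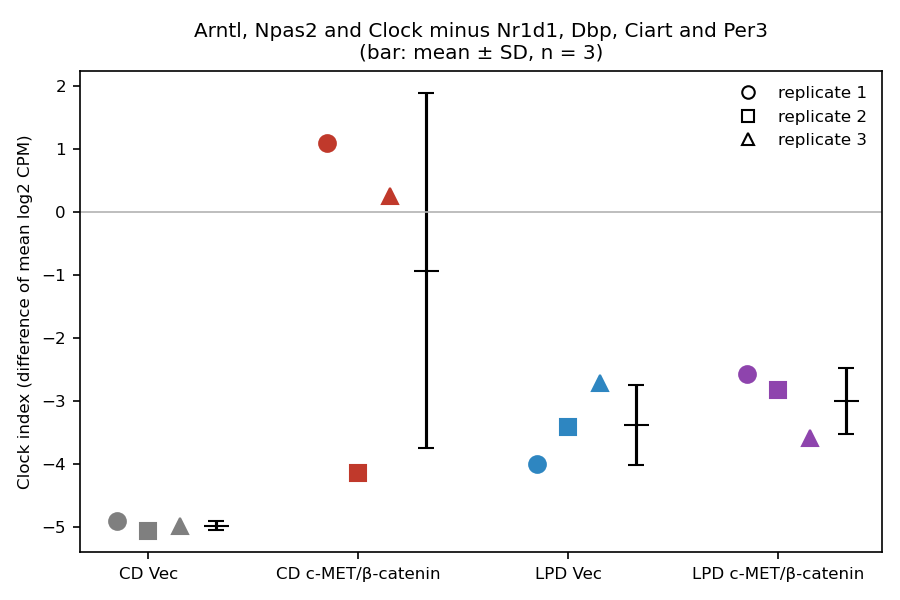
Clock index (difference of mean log2 CPM, vertical axis) in each library by group, with 1 symbol per replicate and the mean ± SD of 3 libraries beside them. CD Vec lies between -5.06 and -4.91, the LPD groups between -4.00 and -2.58, and CD c-MET/β-catenin replicates 1 and 3 lie above 0.

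The spread between mice is given beside that of all genes tested, as a description, since the genes were chosen knowing how they differed between the chow-fed oncogene mice. In CD c-MET/β-catenin the median SD of log2 CPM was 1.35 over the 10 genes and 0.26 over all genes, and 7 of the 10 (Arntl, Npas2, Per2, Per3, Cry1, Dbp and Ciart) were above the 90th percentile of all genes. Dbp had an SD of 2.13 in that group, with 13 genes above it, and Arntl 2.01, with 19 genes above it. In LPD Vec 4 of 10 were above the 90th percentile, with a median of 0.28 against 0.15. In CD Vec (0.38 against 0.30) and LPD c-MET/β-catenin (0.22 against 0.18) none were. The 9 other clock genes described next had a median SD of 0.36 in CD c-MET/β-catenin, with 3 above the 90th percentile (Arntl2, Tef and Nfil3).

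**Figure D4:**
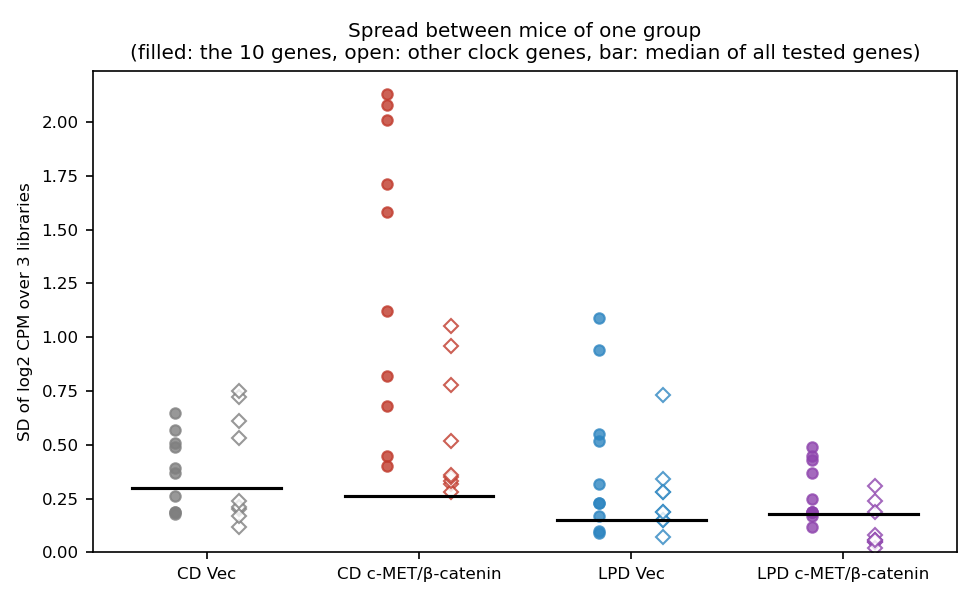
SD of log2 CPM over the 3 libraries of each group (vertical axis) for the 10 clock genes (filled) and the 9 other clock genes (open), with a bar at the median of all genes tested. In CD c-MET/β-catenin the 10 clock genes have a median of 1.35 against 0.26 for all genes, and in LPD c-MET/β-catenin 0.22 against 0.18.

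To place these values, 9 further clock genes were tested in the same edgeR fit, with adjustment over all genes. Between c-MET/β-catenin and Vec on CD, 5 of them fell and 1 rose, where 16.7% of all genes fell and 18.7% rose. Bhlhe41 (DEC2), a repressor that competes at E-boxes, was at 7.44, 6.37 and 5.88 CPM in CD Vec and at 1.36, 1.39 and 0.861 CPM in CD c-MET/β-catenin, and fell by 2.44 on the log2 scale (SE 0.36, adjusted p = 0.000376), with no overlap. Replicate 2 moved with the other 2 mice, with a difference from the CD Vec mean of -2.17. Of the exon bases of Bhlhe41, 19.05% overlap a gene on the other strand.

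Of the PAR bZIP relatives of Dbp, Hlf was at 99.2, 71.6 and 80.5 CPM in CD Vec and at 43.6, 59.6 and 38.3 CPM in CD c-MET/β-catenin, and fell by 0.83 (SE 0.17, adjusted p = 0.00302). Tef was at 263, 228 and 264 CPM in CD Vec and at 66.7, 200 and 59.4 CPM in CD c-MET/β-catenin, and fell by 1.21 (SE 0.37, adjusted p = 0.0244). Tef split the CD c-MET/β-catenin mice as Dbp did, with replicate 2 close to CD Vec, and its call was lost without replicate 1 or 3 of CD c-MET/β-catenin (adjusted p of 0.0846 and 0.0664) and without replicate 1 or 3 of CD Vec (adjusted p of 0.0560 and 0.0563). Without CD c-MET/β-catenin replicate 2 it fell by 2.0.

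Cry2, the second CRY repressor, fell by 0.59 (SE 0.17, adjusted p = 0.0151), and its call was lost without CD Vec replicate 3 (-0.48, adjusted p = 0.0612), with only the groups compared in the fit (adjusted p = 0.0712) and with total counts only as the scaling (-0.31, adjusted p = 0.172). Nr1d2 (REV-ERBβ) fell by 0.62 (SE 0.21, adjusted p = 0.0390), from 122, 104 and 138 CPM to 60.7, 115 and 62.0 CPM. This call was lost on leaving out any of 9 libraries, with adjusted p between 0.0506 and 0.127. Arntl2, the paralog of Arntl, rose by 1.48 (SE 0.50, adjusted p = 0.0360) from 4 to 12 counts per library in CD Vec to 12 to 49 counts in CD c-MET/β-catenin, and the groups overlapped. Its call was lost on leaving out any of 8 libraries, with adjusted p between 0.0502 and 0.138, and with header run as a term the value was -0.03. With only the groups compared, the calls of Tef, Nr1d2 and Arntl2 were lost as well, with adjusted p of 0.0863, 0.133 and 0.13, and with total counts only those of Tef and Nr1d2, with adjusted p of 0.0701 and 0.264. With header run as a term, Tef and Nr1d2 had adjusted p of 0.0587 and 0.0984. Rora (0.19, adjusted p = 0.581), Nfil3 (-0.06, adjusted p = 0.923) and Bhlhe40 (-0.42, adjusted p = 0.326) did not pass. Nfil3, the D-box repressor, was at 32.5, 7.55 and 18.1 CPM in CD c-MET/β-catenin, lowest in replicate 2, where Dbp was highest.

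On LPD, 0 of the 9 other clock genes were called in edgeR between c-MET/β-catenin and Vec, 0 had an unadjusted p under 0.05, and DESeq2 called 0 with 1 at an unadjusted p under 0.05. Of all genes edgeR called 1.32% and DESeq2 3.57% in this comparison. The log2 fold changes on LPD ran from -0.63 for Bhlhe40 to -0.03 for Nr1d2. Their SE also carries the spread of the CD c-MET/β-catenin mice, since each gene had a single estimate of spread. The difference between the diets was itself called for Bhlhe41, with an interaction of 2.36 (SE 0.49, adjusted p = 0.0161), and the call was lost with header run as a term (2.95, adjusted p = 0.0954). For the other 8 it was not called. In c-MET/β-catenin livers, Hlf (0.81, SE 0.17, adjusted p = 0.00740) and Bhlhe41 (1.34, SE 0.36, adjusted p = 0.0208) were higher on LPD than on CD, with no overlap between libraries. The call of Bhlhe41 between diets was lost without replicate 1 or 3 of LPD c-MET/β-catenin and without replicate 3 of CD c-MET/β-catenin, with adjusted p between 0.0599 and 0.0625. In Vec livers, 0 of 9 were called between the diets in edgeR and 0 in DESeq2, with 2 at an unadjusted p under 0.05 in each, against 0.308% and 2.43% of all genes called.

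**Figure D5:**
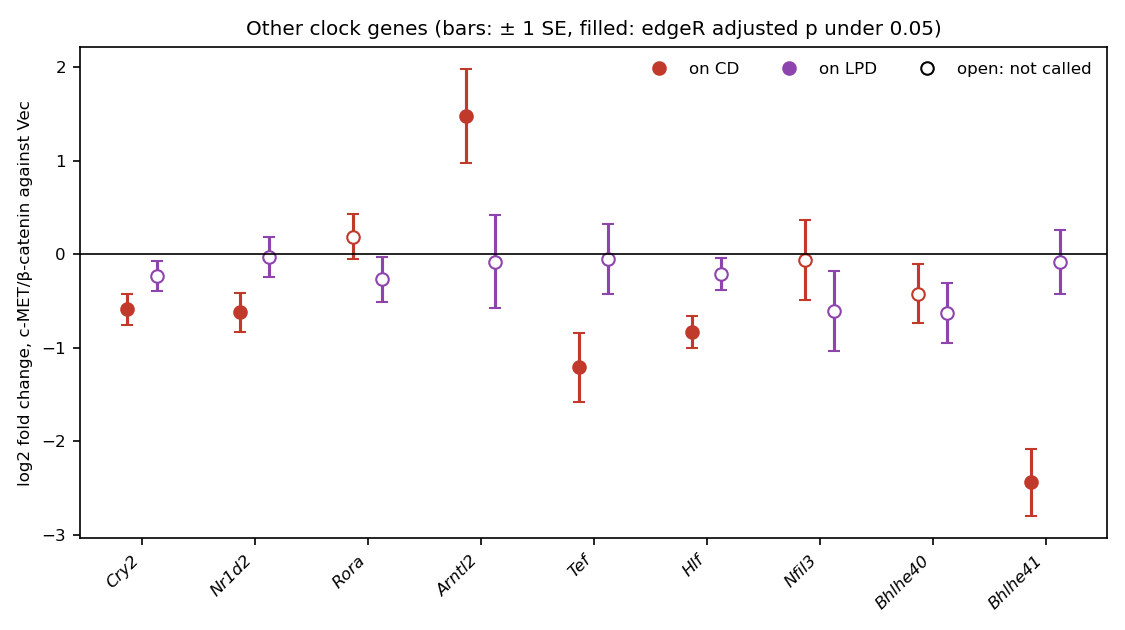
Log2 fold change (c-MET/β-catenin over Vec, vertical axis, bars ± 1 SE) for 9 other clock genes on CD and on LPD, with filled symbols for genes called in edgeR. On CD 6 genes are filled, from -2.44 for Bhlhe41 to 1.48 for Arntl2, and on LPD none.

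Of 19 genes for clock kinases, ubiquitin ligases and cofactors, 4 rose and 2 fell between injections on CD, against 35.4% of all genes called, with a median log2 fold change of 0.01 against -0.01 over all genes. Without CD c-MET/β-catenin replicate 2 the number that rose was 2. Prkaa2, a catalytic subunit of AMP-activated protein kinase, which marks CRY1 for degradation, fell by 1.08 (SE 0.15, adjusted p = 0.000247), with 93.8 to 128 CPM in CD Vec, and in CD c-MET/β-catenin 42.5 to 55.7 CPM. Csnk1e, a casein kinase that phosphorylates PER, rose by 0.80 (SE 0.21, adjusted p = 0.0123), and Fbxl21, a ubiquitin ligase subunit that targets CRY, by 1.30 (SE 0.34, adjusted p = 0.0114). On LPD 0 of 19 were called between injections in edgeR or DESeq2 (1 at an unadjusted p under 0.05 in each), against 1.32% of all genes in edgeR (median -0.02 against 0.011). Between the diets 0 of 19 were called in Vec by either tool (0 at an unadjusted p under 0.05), against 0.308% (median 0.03 against -0.029), and 3 of 19 in c-MET/β-catenin livers, against 20%.

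Of 18 clock output genes of liver, 7 fell and 2 rose on CD, against 16.7% and 18.7% of all genes, with a median of -1.05 against -0.01 over all genes. Usp2, an E-box target that encodes a deubiquitinase, was at 54.0, 102 and 75.0 CPM in CD Vec and at 5.17, 46.2 and 8.61 CPM in CD c-MET/β-catenin, the same split of the mice as for Dbp, and did not pass (-1.95, SE 0.73, adjusted p = 0.0570). Upp2, a uridine phosphorylase, fell by 3.78 (SE 0.60, adjusted p = 0.000695), with 335, 414 and 753 CPM in CD Vec and 11.1, 40.9 and 57.4 CPM in CD c-MET/β-catenin. Alas1, the rate-limiting enzyme of heme synthesis, fell by 2.15 (SE 0.53, adjusted p = 0.00872), and Elovl3, a fatty acid elongase, by 1.83 (SE 0.50, adjusted p = 0.0153). Avpr1a, the vasopressin receptor of hepatocytes, rose by 3.37 (SE 0.28, adjusted p = 1.77e-05), from 12, 12.2 and 22.5 CPM to 189, 146 and 147 CPM. For Upp2, Alas1, Elovl3 and Avpr1a, replicate 2 lay with the other CD c-MET/β-catenin mice and away from CD Vec.

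On LPD 0 of the 18 output genes were called between injections in edgeR or DESeq2 (2 and 4 at an unadjusted p under 0.05), against 1.32% of all genes in edgeR (median 0.19 against 0.011). The interaction was called for 5, against 8.91% of all genes, among them Alas1 (3.50, SE 0.74, adjusted p = 0.0184), Avpr1a (-2.95, SE 0.37, adjusted p = 0.00296), Upp2 (2.82, SE 0.77, adjusted p = 0.0457) and Coq10b, which encodes a coenzyme Q-binding protein (1.83, SE 0.43, adjusted p = 0.0251). Between the diets in Vec livers, 1 of the 18 was called in edgeR, against 0.308% of all genes, and 6 in DESeq2, against 2.43%. The gene called in edgeR was Avpr1a, which rose on LPD by 1.66 (SE 0.26, adjusted p = 0.0262), and 0 of 18 were called without CD Vec replicate 2. Alas1 was at 483, 1460 and 556 CPM in CD Vec and at 175, 74.6 and 58.0 CPM in LPD Vec and did not pass (-3.02, SE 0.55, adjusted p = 0.0505), nor did Upp2 (-1.99, adjusted p = 0.177) or Coq10b (-1.23, adjusted p = 0.108). Elovl3 was higher on LPD than on CD in c-MET/β-catenin livers by 3.0 (SE 0.52, adjusted p = 0.00329).

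Other gene groups differed between the same mice. Of 9 temperature and heat shock genes, 1 rose on CD in edgeR, against 18.7% of all genes, and 0 fell. It was Rbm3 (0.82, SE 0.24, adjusted p = 0.0179), for which CD c-MET/β-catenin replicate 1 was highest, with 107 CPM. The median log2 fold change of the list was -0.65, against -0.01 over all genes, and DESeq2 called 1 higher and 2 lower. Of 10 glucocorticoid targets, Mt2 and Lcn2 rose on CD in edgeR, against 18.7% of all genes, and 1 did in DESeq2. Mt2 was at 2030, 64.2 and 38.2 CPM in replicates 1 to 3. Of 12 fasting genes 3 rose and 3 fell on CD, against 18.7% and 16.7% of all genes, and 2 rose and 2 fell without replicate 2 of either CD group. Igfbp1 was at 2210, 570 and 386 CPM. Of 10 feeding genes 5 fell, against 16.7% of all genes, and 8 did in DESeq2, 9 without CD Vec replicate 2 and 3 without CD c-MET/β-catenin replicate 2. Fasn was at 212, 474 and 622 CPM. Replicate 1 stood farthest from the other 2 mice for Mt2, Igfbp1 and Fasn. For some other genes of these lists replicate 2 was the lowest of the 3 mice, as for Arntl. Among them, chosen after their values were seen, Hspa1a was at 8.14, 1.84 and 11.2 CPM, Zbtb16 at 66.4, 9.51 and 24.2 CPM and G6pc at 185, 91.0 and 261 CPM in replicates 1 to 3. For G6pc, unlike for Arntl, replicate 2 was also the farthest from the CD Vec mean (log2 -2.17, against -1.14 and -0.65 in replicates 1 and 3). Fkbp5, Dusp1 and Angptl4 of the same lists were lowest in replicate 3. In CD Vec replicate 2, where heat shock genes were high (Hsph1 318 CPM against 56.7 and 57.4), Per1, Per2 and Cry1 were the highest of the 3 CD Vec livers and Clock, Nr1d1, Dbp and Per3 the lowest. The part of these gene groups in the clock values was not tested.

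All 10 proliferation genes rose on CD, where 18.7% of all genes did, and their summed level was 164, 156 and 228 CPM in CD c-MET/β-catenin replicates 1 to 3 against 7.39 to 22.2 CPM in CD Vec. Replicate 2 had the lowest sum of proliferation genes of the 3 mice, next to replicate 1. For β-catenin targets, of which 7 of 10 rose against the same share, the sum was 14800, 18300 and 16500 CPM, of which Cyp2e1, which did not pass (-0.48, SE 0.30, adjusted p = 0.238), made up 3860, 7970 and 5350 CPM. Markers of cholangiocytes, 5 of 5 detected, summed to 382, 292 and 121 CPM in CD c-MET/β-catenin against 36.8 to 46.3 CPM in CD Vec. Of these, Krt19 and Spp1 rose, by 2.91 and 2.87 (adjusted p = 7.05e-05 and 0.000127), while Epcam (-0.50), Sox9 (-0.41) and Krt7 (0.33) did not pass. Stellate cell markers (6 of 6 detected) summed to 391, 454 and 203 CPM against 200 to 260 CPM, with Col1a1 (3.92) and Reln (1.53) called higher and Dcn (-1.30) and Lrat (-1.42) called lower. Kupffer cell and macrophage markers (6 of 6 detected) summed to 153, 122 and 188 CPM against 79.1 to 165 CPM, and Cd68 was the 1 gene called in edgeR (1.71, adjusted p = 0.000349). Endothelial markers (6 of 6 detected) summed to 170, 106 and 108 CPM against 96.3 to 196 CPM, and Clec4g was the 1 gene called in edgeR (-1.09, adjusted p = 0.000695), while 2 were called in DESeq2 and 2 in edgeR without CD Vec replicate 2. T and NK cell markers summed to at most 4.87 CPM in any library, and B cell markers to at most 4.10 CPM. Of the 4 T and NK cell markers tested, Cd8a (3.72, adjusted p = 0.0013) was called higher on CD, and Cd3e, Cd3g and Nkg7 were not called. Neutrophil markers summed to 15.0, 5.71 and 4.90 CPM in CD c-MET/β-catenin against 1.36 to 2.50 CPM in CD Vec, with 1 of 4 at 0 in each of these groups, and both that were tested, S100a8 (2.20) and S100a9 (1.95), were called higher. In bulk samples fewer cells of a type and less RNA per cell cannot be told apart, and the part of cell composition in the clock values was not tested.

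Among 9223 genes with a full symbol and a mean of at least 5 CPM, those most like Arntl in their deviations from the group mean over the 12 libraries were Esco1 (Pearson r = 0.966), Dpy19l1 (0.947), Rrm2 (0.929), Clpx (0.928) and Dap (0.925). Most like Dbp were Rabggta (0.972), Insr (0.971), Stard5 (0.952), Vmac (0.951) and Angel2 (0.947). Insr, the insulin receptor, was at 79.5, 134 and 96.8 CPM in CD c-MET/β-catenin replicates 1 to 3, and Clpx, a subunit of a mitochondrial protease, at 315, 70.6 and 166 CPM. Without the 2 libraries farthest out, r was 0.79 for Insr, 0.45 for Clpx and -0.05 for Rabggta, so that the likeness of Rabggta rests on those libraries. The values are descriptions over 12 libraries that share the split of the CD c-MET/β-catenin mice.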

How the data were processed

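Integer read counts per gene were used as deposited. Per the labels and the authors' methods, HISAT2 aligned the reads to mm10 and featureCounts counted them under Entrez identifiers, with no normalization. Versions, strand setting and treatment of multi-mapping reads are not given in the sources used here. The labels describe ribosomal RNA depletion and the methods mRNA selection. Column names call chow HPD, and groups follow the labels. Of 27179 genes, 25275 were matched to symbols in RefSeq GRCm38.p6 and 18 in GENCODE M21.

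The 4 groups entered 1 edgeR 4.0.16 fit in R 4.3.3 (TMM factors 0.864 to 1.12, filterByExpr, robust quasi-likelihood test, no covariate), with Benjamini-Hochberg adjustment over 13947 genes and calls at an adjusted p under 0.05. The common dispersion was 0.0537. Log2 CPM had a prior count of 2. A few genes of these lists are not reported here, and list counts leave them out. The members and all gene lists were chosen with earlier results of these data known. Named were all genes of both clock lists, up to 4 of the largest called changes per other list and comparison (otherwise the largest change), genes on which a statement about single mice turns, and the 5 genes most like Arntl and Dbp. List counts without replicate 2 of CD c-MET/β-catenin or of CD Vec, and in DESeq2, were added after the data were seen. Calls were tested on simulated data in which each gene had the same spread in every group. The simulation therefore does not cover the wider spread of the clock genes in CD c-MET/β-catenin. Alternatives were total counts only, RLE size factors, no filter, a replicate block, a header run term, only the groups compared, DESeq2 1.42.0, prior count 0.5 and leaving out each library.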

Additional observations from a re-analysis of the deposited data

Results flagged for a closer look

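The effect of c-MET/β-catenin differed between the diets, by the interaction in edgeR, for 1 of the 9 other clock genes and for 5 of 18 output genes, against 8.91% of all genes. The 4 output genes with the largest differences are named here. The interaction, given as the log2 fold change on LPD minus that on CD, was 2.36 for Bhlhe41. It was 3.50 for Alas1, -2.95 for Avpr1a, 2.82 for Upp2 and 1.83 for Coq10b. With header run as a term, Bhlhe41 had an interaction of 2.95 (adjusted p = 0.0954).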

How the results depend on the processing

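On CD, 6 other clock genes were called, and 3 with total counts only, 3 with a header run term, 2 with only the groups compared and 3 to 6 on leaving out each library. The 10 clock genes gave 4 calls, 1 with a header run term and 3 to 7 on leaving out libraries. The share of all genes called is not given for most of these alternatives, so their counts are not set against it. Between diets in Vec, other clock genes gave 0 calls under every alternative run and the 10 clock genes 0 (2 in DESeq2, 0 to 1 leaving out libraries). Between diets in c-MET/β-catenin, other clock genes gave 2 calls (1 with a header run term, 1 to 4 leaving out libraries) and the 10 clock genes 1 (2 with total counts only, 2 in DESeq2, 0 with a header run term, 0 with only the groups compared, 0 to 4 leaving out libraries). For the interaction, other clock genes gave 1 call (0 with a header run term, 1 to 4 leaving out libraries) and the 10 clock genes 2 (1 with RLE factors, 0 without a filter, 0 with a header run term, 3 in DESeq2, 0 to 5 leaving out libraries). On LPD both lists gave 0 calls under every alternative run, and on CD the calls of Hlf and Bhlhe41 held under every one. Replicate numbers did not pair the mice, since correlations of same-numbered deviations lay between -0.11 and 0.17. With the replicate block, the 10 clock genes gave 0 calls between diets in c-MET/β-catenin and 1 for the interaction. Directions turned for Rora (-0.07 without CD Vec replicate 2, -0.07 to 0.36 leaving out libraries), Arntl2 (-0.03 with a header run term) and Nfil3 (0.22 with total counts only, 0.32 without CD c-MET/β-catenin replicate 2, 0.19 without CD Vec replicate 2, 0.00 without CD Vec replicate 3, -0.66 to 0.32 leaving out libraries). Total counts only moved the median of all genes by 0.288 on CD, from -0.01 to 0.278. With a prior count of 0.5 the CD Vec index was -5.20. Of 227 single values (the 9 other clock genes on CD, and those called between diets in c-MET/β-catenin or for the interaction), 183 kept direction and side of the threshold, 37 were no longer called and 1 became called. The cause was not tested. At most 4 counts of Npas2 per CD Vec library limit the precision of its fold change.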
